A study of Mus musculus with 6 samples.

Results

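Nuclear receptors are transcription factors that carry a zinc finger DNA-binding domain and, in most members, a pocket for a small lipophilic ligand. The genes described here are 40 members of this superfamily, chosen by their gene symbols: receptors for hormones and vitamins, sensors of lipids and xenobiotics, their retinoid X receptor partners, clock receptors, hepatocyte transcription factors and orphan receptors. All 40 were found among the 24063 genes of the count table, and other members of the superfamily were not analysed here. RNA was measured in liver tumors of male C57BL/6 mice, 3 wild-type (WT, NR2E3+/+) and 3 Nr2e3-/- (NR2E3 KO) animals, with 1 single-end library per tumor. By the study's methods, the mice of both genotypes received the liver carcinogen diethylnitrosamine (DEN) once by intraperitoneal injection, at 25 mg/kg and 15 days of age, and these tumors were collected at the 24-week time point. The Nr2e3-/- line had been made earlier, and where the WT mice of the tumor experiment came from and whether the animals were littermates are not given in the sources used here. No untreated liver and no tissue next to the tumors entered the comparison, and all 6 libraries therefore share the DEN treatment.

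In the liver, nuclear receptors set much of the hepatocyte's gene program. HNF4A and NR5A2 act on hepatocyte genes without a classical hormone; CAR and PXR sense foreign compounds, LXR senses oxysterols and the PPARs sense fatty acids, each as a heterodimer with a retinoid X receptor; thyroid hormone, retinoic acid, glucocorticoid, mineralocorticoid and estrogen receptors carry endocrine signals; and REV-ERB and ROR proteins compete at the same elements in the circadian clock. Bound receptors recruit coactivators that open chromatin or corepressor complexes that close it. NR2E3, the receptor deleted here, is an orphan receptor best known from the photoreceptors of the retina.

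The libraries held 15376261 to 28690279 counts assigned to genes. Nr2e3 itself had 0 counts in all 6 libraries, WT included; a count of 0 allows up to 0.105 to 0.195 CPM (counts scaled to a common library size) per library by counting error alone, and the genotype could not be checked from this gene. Nr2e3-/- replicate 1 stood apart from its group: across genes, its log2 CPM had a median Pearson correlation of 0.979 with the WT libraries and 0.962 with the other Nr2e3-/- libraries, while the other 5 libraries correlated more highly with their own group. Values without this library are therefore given beside many of the results that it moves. Hepatocyte markers (Alb, Ttr, Apoa1, Cps1, Cyp2e1, Serpina1c) summed to 128290 to 157587 CPM in WT and 112420 to 133670 CPM in Nr2e3-/- tumors, and none of the markers of other cell types used below was at 0 in all libraries.

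The receptor program of both groups was headed by a pair of genes. Levels between genes are given as normalized CPM per kilobase of exon, averaged over all 6 libraries. Hnf4a, the master regulator of hepatocyte identity, stood highest at 204, which was 38.0% of the summed level of the 40 receptors. Rxra, the main hepatic retinoid X receptor, followed at 93.5, or 17.4% of the sum, and Nr1h3, which encodes the oxysterol receptor LXRα, at 34.0. The ranges of these 3 receptors over the libraries did not overlap each other, and those of Hnf4a and Rxra overlapped no other receptor. That of Nr1h3 (29.96 to 37.1) lay above those of Nr1d1 and Nr1d2, but Nr1i2 reached 30.53 and Nr1i3 31.92. Below Nr1h3 by mean, the REV-ERB genes Nr1d1 and Nr1d2 (24.5 each), the pregnane X receptor gene Nr1i2 (23.9), Nr2f6 (23.0) and the constitutive androstane receptor gene Nr1i3 (17.6) formed a group in which each range overlapped that of its neighbour, and their order is not resolved beyond the spread between libraries. The glucocorticoid receptor gene Nr3c1 (15.3) overlapped Nr1i3 above it but not Nr5a2 (11.0) below it.

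**Figure D1:**
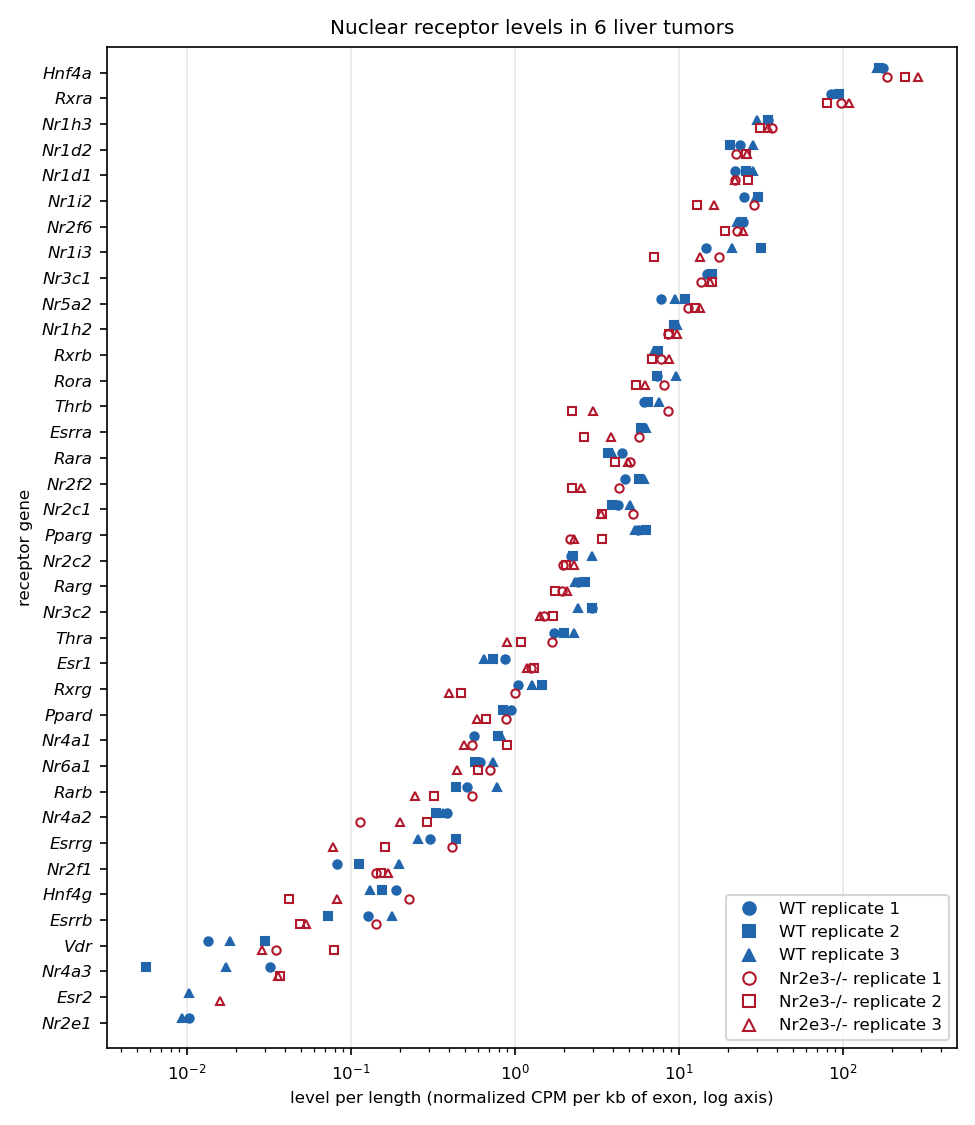
Levels of the receptors with at least 1 count, 1 row per gene ordered by mean; the x axis is the level per length in normalized CPM per kilobase of exon on a log axis, filled blue points are WT libraries, open red points are Nr2e3-/- libraries, and the symbol shape gives the replicate. Hnf4a and Rxra stand to the right of all others in each of the 6 libraries, and libraries at 0 are not drawn.

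Receptors of the same subfamily differed widely in level. Rxra exceeded Rxrb by 11.5, 12.8 and 13.2 times in WT and by 12.6, 11.7 and 12.5 times in Nr2e3-/- tumors, with overlapping ranges. The thyroid hormone receptor gene Thrb stood above Thra in every library, by 3.3 to 3.5 times in WT and by 2.03 to 5.16 times in Nr2e3-/- tumors. Pparg, the receptor of fat storage, exceeded Ppard, the broadly expressed fatty acid receptor, by 5.91, 7.35 and 6.08 times in WT and by 2.44, 5.09 and 3.91 times in Nr2e3-/- tumors, with no overlap between the groups. The size of such ratios depends on the length used. The exon union of Ppard has 7514 bases and its longest coding transcript 3277, against 2953 and 2125 for Pparg. Without division by length, Nr2e3-/- replicate 1 had 6.42 CPM of Pparg and 6.68 CPM of Ppard. The summed level of all 40 receptors was 499.9, 529.3 and 518.3 in WT and 530.5, 521.1 and 620.5 in Nr2e3-/- tumors. Hnf4a and Rxra together took 52.4%, 49.5% and 49.4% of that sum in WT and 53.8%, 61.2% and 64.2% in Nr2e3-/- tumors, so that the groups did not overlap, and Nr2e3-/- replicate 1 lay next to WT.

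At the other end, 6 receptors had too few counts to be tested. Pgr, the progesterone receptor gene, had 0 counts in all libraries, as did Nr2e3. Esr2, the second estrogen receptor gene, and Nr2e1, the closest relative of Nr2e3 and a regulator of neural stem cells, had at most 1 count per library. Nr4a3, an orphan receptor induced as an immediate early gene, had 5, 1 and 3 counts in WT and 0, 6 and 4 in Nr2e3-/- tumors. Vdr, the vitamin D receptor gene, had 2, 5 and 3 counts in WT and 3, 12 and 3 in Nr2e3-/- tumors. At this depth a difference in these genes was not detectable.

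The Nr2e3-/- and WT tumors were compared gene by gene across the 13572 genes that passed the filter on low counts, of which 34 were receptors, with edgeR's quasi-likelihood F test and Benjamini-Hochberg adjustment over all genes tested. No receptor passed an adjusted p of 0.05, a threshold that 0.0958% of all genes passed. At an unadjusted p under 0.05, 9 of the 34 receptors (26.5%) were called, against 21.5% of all genes tested, a share near that background. Of these 9, Esr1, Hnf4a and Nr5a2 were higher in Nr2e3-/- tumors (11.8% of all genes were called higher), and Nr2f2, Nr3c2, Pparg, Rarg, Rxrg and Thra were lower (9.72% of all genes). DESeq2 called 4 receptors at an adjusted p under 0.05 (Esr1, Nr2f2, Nr3c2 and Pparg; 8% of all genes). limma-voom with sample quality weights, in which Nr2e3-/- replicate 1 had a weight of 0.338, called 10 (17.4% of all genes), and 17 at an unadjusted p under 0.05 (36.7% of all genes).

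The direction of the differences was uneven. Of the 34 tested receptors, 25 had a negative and 9 a positive log2 fold change (Nr2e3-/- over WT), with a median of -0.26 against 0.007 for all genes tested. With upper quartile scaling the receptors' median was -0.34 against -0.079 for all genes, with 28 negative and 6 positive. For 11 of the 34 (32.4%) the libraries of the groups did not overlap, 8 lower and 3 higher in Nr2e3-/-, against 26.8% of all genes tested. For such a gene an exact two-sided permutation test gives p = 0.1, the smallest value that 3 against 3 libraries allow. Nothing in the labels says more of the replicates than that they are separate tumors, and p-values measure the spread between these libraries.

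Nr2e3-/- replicate 1 decided many of the calls. It was singled out for its closeness to WT, so larger group differences are likely once it is left out. The p-values without it, here and below, rest on fewer Nr2e3-/- libraries and are no independent check. Without it, edgeR called 10 receptors at an adjusted p under 0.05 (29.4% of 34), against 21.8% of all genes: Esr1 and Hnf4a higher (12.2% of all genes), and Esrra, Nr1i2, Nr2f2, Nr3c2, Pparg, Rxrg, Thra and Thrb lower (9.65% of all genes). At an unadjusted p under 0.05 the count was 20, against 37.7% of all genes. This library lay nearer to WT than to the other Nr2e3-/- libraries for 19 of the 34 receptors (55.9%), for 62.9% of all genes tested and for 7 of the 10 receptors called without it. Leaving out WT replicate 2, WT replicate 3 or Nr2e3-/- replicate 3 instead reduced the receptors at an unadjusted p under 0.05 from 9 to 5 in each case (14.7% of 34), while the share of all genes was 13.0%, 13.0% and 12.2%. Esr1, Nr3c2, Pparg and Nr2f2 were among those 5 each time.

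**Figure D2:**
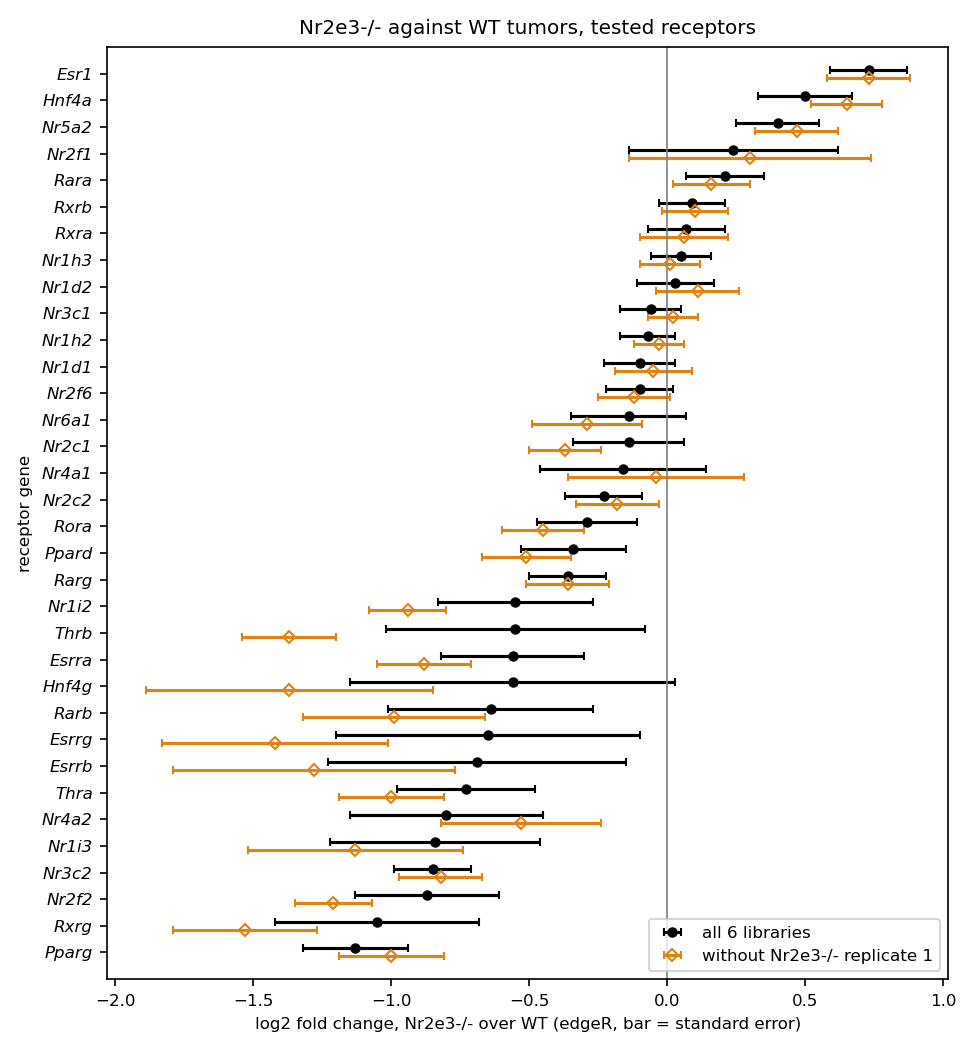
Log2 fold change of each of the 34 tested receptors, Nr2e3-/- over WT, on the x axis with its standard error as a bar; black points use all 6 libraries and open orange diamonds leave out Nr2e3-/- replicate 1. Most points lie left of 0, from Pparg at -1.13 to Esr1 at 0.73 with all libraries, and Thrb moves from -0.55 to -1.37 when the library is left out.

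Among the hormone and vitamin receptors, 4 of the 8 tested passed an unadjusted p of 0.05, against 21.5% of all genes, and the median log2 fold change of the 8 was -0.46. Esr1, the estrogen receptor α gene (chr10:4611593-5005614, plus strand, GRCm38), through which estrogens act on hepatocytes, had 12.0, 10.1 and 8.91 CPM in WT and 17.3, 17.9 and 16.3 CPM in Nr2e3-/- tumors. All Nr2e3-/- libraries, replicate 1 included, lay above all WT libraries. The means were 10.3 ± 1.54 and 17.1 ± 0.80 CPM (SD, n = 3 each), 1.66 times higher in Nr2e3-/-, with a log2 fold change of 0.73 ± 0.14 (SE, edgeR unadjusted p = 0.0013, adjusted p = 0.093). Without replicate 1 the log2 fold change was again 0.73, with an adjusted p of 0.0211, and DESeq2 gave an adjusted p of 0.00166 on all libraries.

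Nr3c2 encodes the mineralocorticoid receptor, which binds aldosterone and also glucocorticoids (chr8:76899442-77245012, plus strand). It had 19.3, 19.1 and 15.7 CPM in WT and 9.73, 11.1 and 9.19 CPM in Nr2e3-/- tumors. The groups were well apart, and replicate 1 lay within the Nr2e3-/- range. With means of 18.05 ± 2.0 and 10.02 ± 1.0 CPM (SD, n = 3 each) the gene stood 1.8 times higher in WT, at a log2 fold change of -0.85 ± 0.14 (SE) and the smallest unadjusted edgeR p of all receptors, 0.000496 (adjusted p = 0.093; without replicate 1, 0.0154; DESeq2, 0.000237).

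The study asked whether the factor Sp1, which binds GC boxes, acts at the promoter of Ppard when NR2E3 is lost, a question it addressed at the human gene in a liver cancer cell line. The mouse Ppard promoter is shown here with those of the receptors that had the smallest p in each direction, Nr3c2 and Esr1. Each run is the 250 bases upstream of a RefSeq start on GRCm38.p6, plus strand, with every GC box (GGGCGG, or CCGCCC on the other strand) in capitals. The Ppard window is chr17:28232504-28232753, the Nr3c2 window chr8:76902080-76902329 and the Esr1 window chr10:4611739-4611988.
Ppard: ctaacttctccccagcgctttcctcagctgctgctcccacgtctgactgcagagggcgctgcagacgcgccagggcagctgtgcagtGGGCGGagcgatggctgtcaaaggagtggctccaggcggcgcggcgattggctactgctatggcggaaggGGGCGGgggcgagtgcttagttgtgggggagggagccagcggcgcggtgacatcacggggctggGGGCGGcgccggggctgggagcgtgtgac
Nr3c2: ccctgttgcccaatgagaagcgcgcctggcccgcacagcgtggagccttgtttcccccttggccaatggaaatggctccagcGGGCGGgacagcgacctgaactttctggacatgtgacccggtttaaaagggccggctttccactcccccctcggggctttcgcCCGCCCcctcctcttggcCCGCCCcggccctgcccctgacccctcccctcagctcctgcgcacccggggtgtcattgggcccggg
Esr1: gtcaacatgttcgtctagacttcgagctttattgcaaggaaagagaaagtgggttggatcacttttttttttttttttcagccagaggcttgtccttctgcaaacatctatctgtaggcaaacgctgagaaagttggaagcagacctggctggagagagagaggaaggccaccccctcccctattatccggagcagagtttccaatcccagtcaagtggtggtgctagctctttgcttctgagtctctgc
Ppard and Nr3c2 each held 3 GC boxes. Neither this Esr1 window nor that of its other listed start (chr10:4709908-4710157) held one. Windows were found for 37 of the 40 receptors, 57 in all, and 25 of these (43.9%, from 20 receptors) held a GC box on either strand, against 32.7% of all 32851 promoter windows of the same length. The half-site AAGTCA, used by NR2E3, was found in 4 of the 57 windows (7.02%, against 13.1% of all), and the general receptor half-site AGGTCA in 9 (15.8%, against 14% of all). A match is a run of letters and not a measured site.

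Both thyroid hormone receptor genes were lower in the Nr2e3-/- replicates 2 and 3. Thrb (chr14:17660261-18038090, plus strand), which encodes the main hepatic thyroid hormone receptor, had 45.2, 48.5 and 56.3 CPM in WT and 64.1, 16.5 and 22.2 CPM in Nr2e3-/- tumors. Replicate 1 was the highest of all 6 libraries and the other Nr2e3-/- libraries were the lowest. The log2 fold change was -0.55 ± 0.47 (SE, edgeR adjusted p = 0.507) with replicate 1 and -1.37 ± 0.17 (adjusted p = 0.00463) without it. Thra, which encodes the α receptor (chr11:98740638-98769006, plus strand), had 8.06, 9.16 and 10.6 CPM in WT and 7.74, 5.05 and 4.16 CPM in Nr2e3-/- tumors. Its groups did not overlap, but replicate 1 came within reach of the lowest WT library. The log2 fold change was -0.73 ± 0.25 (SE, edgeR unadjusted p = 0.0224, adjusted p = 0.173), and -1.0 without replicate 1 (adjusted p = 0.0151). Exons of Thra and Nr1d1 overlap on opposite strands over 5.7% of the Thra exons; whether the counting used strand is not given in the sources used here.

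The 3 retinoic acid receptor genes differed. Rarg (chr15:102234938-102257517, minus strand) had 10.3, 11.5 and 9.91 CPM in WT and 8.27, 7.5 and 8.92 CPM in Nr2e3-/- tumors, 1.29 times higher in WT with no overlap (log2 fold change -0.36 ± 0.14, SE, edgeR unadjusted p = 0.0337, adjusted p = 0.198). Rara, at 16.3 to 19.7 CPM in WT and 17.7 to 22.0 CPM in Nr2e3-/- tumors, overlapped between the groups. Rarb, which is itself a retinoic acid target, had 2.69, 2.30 and 4.13 against 2.91, 1.71 and 1.30 CPM, with a log2 fold change of -0.64 ± 0.37 (SE, edgeR adjusted p = 0.343), and it shares 34.1% of its exon length with Top2b on the other strand. Nr3c1, the glucocorticoid receptor gene, was nearly even, at 114 to 123 CPM in WT and 105 to 123 CPM in Nr2e3-/- tumors. Its log2 fold change of -0.06 ± 0.11 (SE, edgeR adjusted p = 0.781) turned to 0.02 without replicate 1.

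With all libraries, the largest difference among the tested receptors was that of Pparg (chr6:115360951-115490399, plus strand), the receptor that drives lipid storage in fat cells and in fatty liver. It had 16.7, 18.6 and 16.0 CPM in WT and 6.42, 10.02 and 6.81 CPM in Nr2e3-/- tumors. All Nr2e3-/- libraries lay below all WT libraries, and replicate 1 was the lowest of them. The means of 17.1 ± 1.34 and 7.75 ± 1.98 CPM (SD, n = 3 each) gave a 2.19 times higher value in WT, with a log2 fold change of -1.13 ± 0.19 (SE, edgeR unadjusted p = 0.000574, adjusted p = 0.093). The adjusted p was 0.0151 without replicate 1 and 7.29e-05 with DESeq2. Leaving out Nr2e3-/- replicate 2 instead also brought Pparg, and no other receptor, under an adjusted p of 0.05.

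Ppard (chr17:28232700-28301474, plus strand), whose promoter is shown above, had 7.18, 6.42 and 6.69 CPM in WT and 6.68, 5.01 and 4.43 CPM in Nr2e3-/- tumors. Replicate 1 lay within the WT range and the other Nr2e3-/- libraries below it. The log2 fold change was -0.34 ± 0.19 (SE, edgeR adjusted p = 0.342), and -0.51 without replicate 1 (adjusted p = 0.063). It did not pass the test, and no alternative gave it a positive sign.

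The xenobiotic sensors had wide spreads. Nr1i2 (PXR, chr16:38248323-38294824, minus strand), the sensor of drugs and bile acids, had 64.3, 77.9 and 75.2 CPM in WT and 73.6, 33.1 and 42.1 CPM in Nr2e3-/- tumors. Replicate 1 lay among the WT libraries, and the log2 fold change was -0.55 ± 0.28 (SE, edgeR adjusted p = 0.293) with it and -0.94 (adjusted p = 0.00908) without it. Nr1i3 (CAR, chr1:171213970-171220701, plus strand), the sensor that phenobarbital activates, had 65.2, 141 and 93.0 CPM in WT and 77.3, 31.1 and 59.6 CPM in Nr2e3-/- tumors. The groups overlapped, and the log2 fold change was -0.84 ± 0.38 (SE, edgeR adjusted p = 0.255), and -1.13 without replicate 1 (adjusted p = 0.0825). Of the Nr1i3 exon length, 74.9% is shared with Tomm40l on the other strand, and reads in that stretch cannot be told apart without strand. Tomm40l had a log2 fold change of -0.55 (edgeR unadjusted p = 0.15). The LXR genes did not differ beyond the spread. Nr1h3 had 87.8, 88.2 and 75.4 CPM in WT and 93.3, 79.3 and 88.5 CPM in Nr2e3-/- tumors, with a log2 fold change of 0.05 ± 0.11 (SE, edgeR adjusted p = 0.801), which turned negative with upper quartile scaling (-0.03). The ubiquitous Nr1h2 had one of -0.07 ± 0.10 (adjusted p = 0.704).

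Of the retinoid X receptors, the partners of most of the sensors above, Rxrg (chr1:167598384-167639623, plus strand) was the least abundant and had the largest difference. It had 2.42, 3.38 and 2.95 CPM in WT and 2.32, 1.076 and 0.92 CPM in Nr2e3-/- tumors. Replicate 1 lay just under the lowest WT library, and the other Nr2e3-/- libraries were well below. The log2 fold change was -1.05 ± 0.37 (SE, edgeR unadjusted p = 0.0251, adjusted p = 0.177), and -1.53 without replicate 1 (adjusted p = 0.0124). Rxra had 466, 520 and 509 CPM in WT and 536, 439 and 594 CPM in Nr2e3-/- tumors, overlapping, with a log2 fold change of 0.07 ± 0.14 (SE, edgeR adjusted p = 0.794; -0.02 with upper quartile scaling). Rxrb gave 0.09 ± 0.12 (adjusted p = 0.664).

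Both abundant hepatocyte transcription factors of the superfamily were higher in Nr2e3-/- tumors at an unadjusted p under 0.05. Hnf4a (chr2:163506808-163572910, plus strand) had 854, 805 and 786 CPM in WT and 904, 1152 and 1397 CPM in Nr2e3-/- tumors. The WT libraries lay close together, and replicate 1 was the Nr2e3-/- library nearest to them. The means of 815 ± 34.98 and 1151 ± 247 CPM (SD, n = 3 each) differed 1.41 times, with a log2 fold change of 0.50 ± 0.17 (SE, edgeR unadjusted p = 0.0232, adjusted p = 0.174), and 0.65 without replicate 1 (adjusted p = 0.0195). Nr5a2 (LRH-1, chr1:136842571-136960448, minus strand), which acts on bile acid and cholesterol genes, had 46.0, 64.9 and 56.1 CPM in WT and 67.7, 73.9 and 79.4 CPM in Nr2e3-/- tumors. No library of one group reached the other, and the log2 fold change was 0.40 ± 0.15 (SE, edgeR unadjusted p = 0.0266, adjusted p = 0.18). It stayed above an adjusted p of 0.05 without replicate 1, at 0.0676. Hnf4g, the paralog of Hnf4a, had 13, 12 and 10 counts in WT and 9, 3 and 4 counts in Nr2e3-/- tumors (edgeR adjusted p = 0.601). Its log2 fold change was -0.56 ± 0.59 (SE), and -1.37 without replicate 1 (edgeR adjusted p = 0.105).

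**Figure D3:**
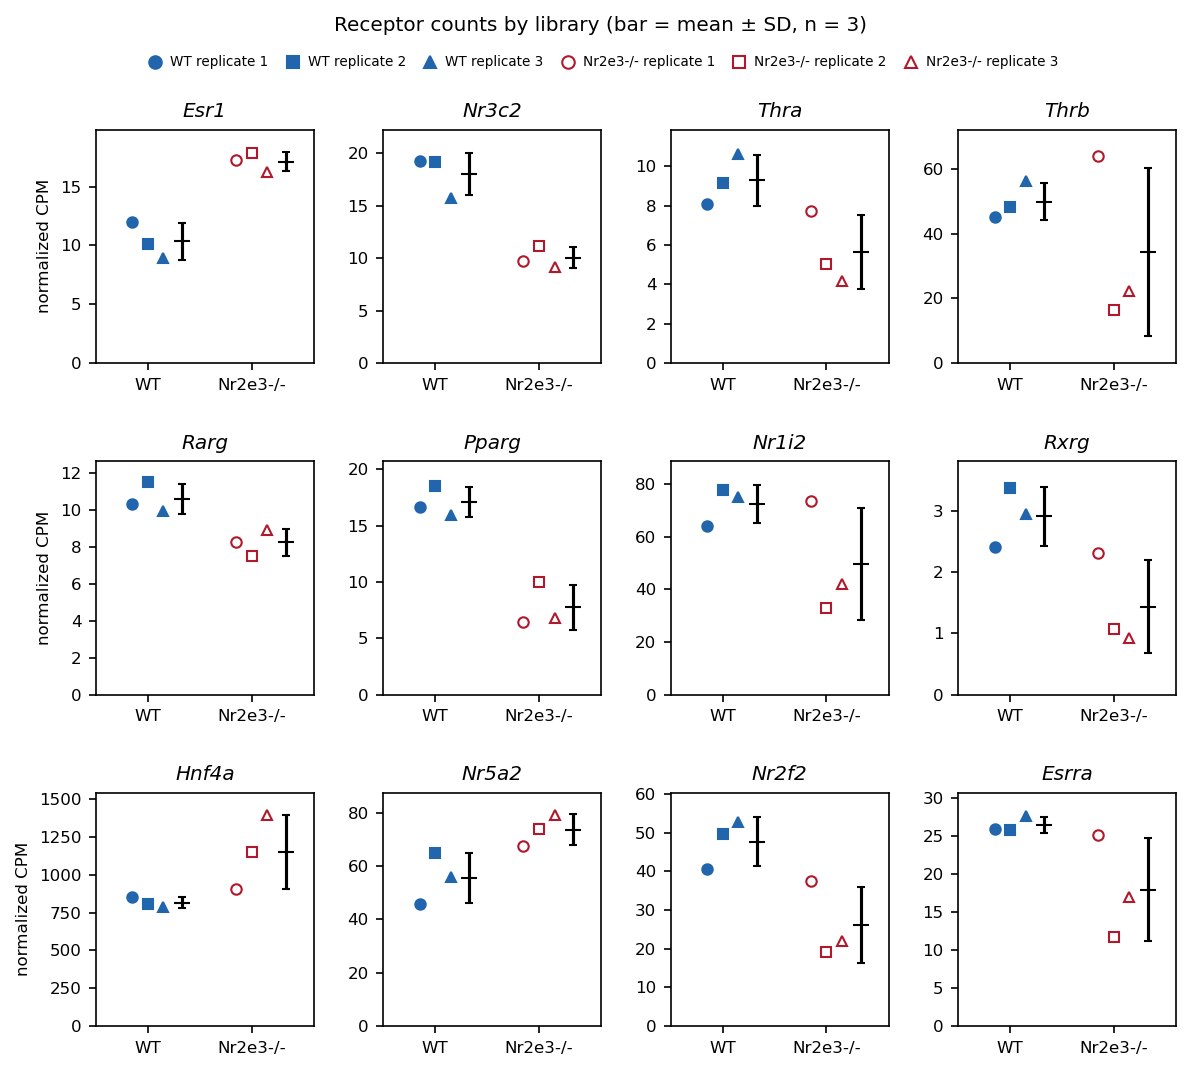
Normalized CPM of 12 receptors in each library, WT as filled blue and Nr2e3-/- as open red symbols whose shape gives the replicate, with the mean ± SD (n = 3) as a black bar; each y axis starts at 0. Esr1, Hnf4a and Nr5a2 lie higher in Nr2e3-/- tumors, Nr3c2 and Pparg lie lower in every Nr2e3-/- library, and for Thrb and Nr1i2 the Nr2e3-/- replicate 1 (circle) lies with or above WT.

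Nr2f2 encodes COUP-TFII, an orphan receptor that binds many of the same elements as HNF4A and is also expressed in endothelial and mesenchymal cells (chr7:70351944-70366735, minus strand). It had 40.5, 49.7 and 52.7 CPM in WT and 37.5, 19.2 and 22.0 CPM in Nr2e3-/- tumors. The groups did not overlap, and replicate 1 again lay next to WT. With means of 47.7 ± 6.38 and 26.2 ± 9.85 CPM (SD, n = 3 each), the gene stood 1.83 times higher in WT, at a log2 fold change of -0.87 ± 0.26 (SE, edgeR unadjusted p = 0.011, adjusted p = 0.14). Without replicate 1 the log2 fold change was -1.21 (adjusted p = 0.00453), and DESeq2 gave an adjusted p of 0.0323. The ratio of Hnf4a to Nr2f2 per length was 37.7, 28.9 and 26.6 in WT and 43.1, 107 and 114 in Nr2e3-/- tumors. None of the 8 stellate cell markers passed an unadjusted p of 0.05 with all libraries. Their summed level, most of it from Dcn, Reln and Col3a1, was 337.8 to 410 CPM in WT, 358.7 CPM in Nr2e3-/- replicate 1, and 229.2 and 207.1 CPM in replicates 2 and 3. The summed endothelial markers, at 335.3 to 347.7 CPM in WT and 291.4 to 351.8 CPM in Nr2e3-/- tumors, overlapped. In bulk tumors, fewer cells of a type and less RNA per cell cannot be told apart, and the part of either in the Nr2f2 values was not tested.

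With all libraries, the other orphan receptors of this subfamily stayed within the spread. Nr2c1, a testicular receptor gene, had 19.7, 18.1 and 23.1 CPM in WT and 24.4, 15.6 and 15.6 CPM in Nr2e3-/- tumors, with replicate 1 the highest of all libraries. Nr2c1 and its paralog Nr2c2 had log2 fold changes of -0.14 ± 0.20 and -0.23 ± 0.14 (SE, edgeR adjusted p = 0.716 and 0.382). Leaving out replicate 1 gave -0.37 for Nr2c1 (edgeR unadjusted p = 0.0301, adjusted p = 0.095). Nr2f6, a repressor known from T cells, had 73.1, 72.9 and 67.4 CPM in WT and 68.1, 57.5 and 73.1 CPM in Nr2e3-/- tumors, which overlapped; 54.4% of its exon length is shared with Ocel1 on the other strand. Nr2f1, the low-level paralog of Nr2f2, had a log2 fold change of 0.24 ± 0.38.

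All 3 estrogen-related receptor genes, regulators of mitochondrial and energy genes, had negative log2 fold changes. Esrra (chr19:6910977-6921813, minus strand) had 25.9, 25.8 and 27.7 CPM in WT and 25.2, 11.7 and 17.0 CPM in Nr2e3-/- tumors. Replicate 1 lay just under the WT libraries, which were close together. The log2 fold change was -0.56 ± 0.26 (SE, edgeR adjusted p = 0.253), and -0.88 without replicate 1 (adjusted p = 0.0165). Esrrg had 1.88, 2.74 and 1.6 CPM in WT and 2.58, 1.0 and 0.49 CPM in Nr2e3-/- tumors, with overlap and a log2 fold change of -0.65 ± 0.55 (SE). Esrrb, at a lower level, had 0.77, 0.44 and 1.07 CPM in WT and 0.86, 0.30 and 0.32 CPM in Nr2e3-/- tumors and gave -0.69 ± 0.54 (SE, edgeR adjusted p = 0.474). Leaving out replicate 1 gave -1.42 for Esrrg and -1.28 for Esrrb (edgeR adjusted p = 0.0519 and 0.121).

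The clock receptors showed no difference past the test. Nr1d1 had 67.6, 78.7 and 87.4 CPM in WT and 68.2, 81.3 and 68.2 CPM in Nr2e3-/- tumors, which overlapped. Its paralog Nr1d2 had 127, 112 and 153 CPM in WT and 122, 139 and 141 CPM in Nr2e3-/- tumors, with a log2 fold change of 0.03 ± 0.14 (SE; -0.05 with upper quartile scaling). Rora, the activator that opposes them, had 97.0, 95.9 and 125 CPM in WT and 107, 72.2 and 81.7 CPM in Nr2e3-/- tumors. The Rora value was -0.29 ± 0.18 (SE, edgeR adjusted p = 0.375), and -0.45 without replicate 1 (adjusted p = 0.0744). Of the NR4A orphan receptors, which are induced within minutes by many stimuli, Nr4a2 had 1.35 to 1.57 CPM in WT and 0.46 to 1.19 CPM in Nr2e3-/- tumors. The groups did not overlap at this low level, with a log2 fold change of -0.80 ± 0.35 (SE, edgeR unadjusted p = 0.0565, adjusted p = 0.243). Nr4a1 and Nr6a1 gave -0.16 ± 0.30 and -0.14 ± 0.21 (SE), and both turned positive, at 0.01 and 0.02, without Nr2e3-/- replicate 3.

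The genes of the proteins that receptors recruit were mixed in direction. Of 15 coactivator genes, 4 passed an unadjusted p of 0.05 (26.7%, near the 21.5% of all genes), and the list's median log2 fold change was 0.16. Smarca4, the ATPase of a chromatin remodelling complex, was higher in Nr2e3-/- tumors (0.48). Ncoa1, a p160 coactivator (-0.50), the acetyltransferase gene Kat2b (-0.40) and Ppargc1a, the coactivator of mitochondrial genes and a partner of ERRα (-0.71), were lower. Of 11 corepressor genes, Tbl1xr1 (0.39) and Rcor1 (0.34), parts of repressor complexes, passed an unadjusted p of 0.05, and the median was 0.17. None of these 26 genes, against 0.0958% of all genes, passed an adjusted p of 0.05 with all libraries in edgeR, whereas 5 of the 15 coactivators and 4 of the 11 corepressors did without replicate 1, against 21.8% of all genes.

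Genes that the receptors are known to act on were listed by receptor. Together the lists, coregulators included, held 112 genes, of which 107 were tested, 36 had an unadjusted p under 0.05 (21.5% of all genes) and none an adjusted one in edgeR (0.0958% of all genes). Many of the listed genes answer to other factors as well. All lists were chosen with earlier results of these data known, so the share of a list that was called is a description and not a test.

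Glucocorticoid targets were mostly higher in Nr2e3-/- tumors. Of 8 genes, 6 passed an unadjusted p of 0.05, 5 of them higher in Nr2e3-/- tumors, against 21.5% of all genes called and 11.8% called higher. Because the list was chosen with earlier results of these data known, these shares are a description and no independent support. The median log2 fold change was 1.10, and 0.67 without replicate 1. Fkbp5, a chaperone of the receptor and a marker of its activity, had 81.7, 83.5 and 81.7 CPM in WT and 224, 148 and 270 CPM in Nr2e3-/- tumors. Zbtb16, a zinc finger gene that glucocorticoids induce, had 18.2, 14.0 and 19.0 CPM in WT and 73.7, 42.6 and 57.5 CPM in Nr2e3-/- tumors, with a log2 fold change of 1.76 (edgeR adjusted p = 0.07). Both had groups that did not overlap, with replicate 1 among the high libraries. Tat (1.30) and the metallothionein gene Mt2 (5.37), which metals and stress also induce, were higher as well, and the phosphatase gene Dusp1 was lower (-0.48). Tsc22d3 (0.90) was higher too, but its groups overlapped. Without replicate 1 its log2 fold change was 0.41 (edgeR adjusted p = 0.245), and that of Tat was 0.94 (adjusted p = 0.0613). Pck1 (0.40) and Sgk1 (0.12) overlapped between the groups and did not pass. Without replicate 1 an adjusted p under 0.05 was reached by Fkbp5 (0.0122), Zbtb16 (0.00434) and Mt2 (0.00432). Nr3c1 itself, as given above, differed by less than the spread between replicates.

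Targets of the lipid sensors were mixed in direction. Of 11 PPAR targets, 6 passed an unadjusted p of 0.05, against 21.5% of all genes: the lipid droplet genes Plin4 (-0.98) and Cidea (-2.20), the fatty acid transporter gene Cd36 (-0.81) and Mogat1, of triglyceride synthesis (-0.92), were lower in Nr2e3-/- tumors, while Angptl4, an inhibitor of lipoprotein lipase (1.05), and Fabp4, a fatty acid binding protein of fat cells and macrophages (0.83), were higher. The list's median was 0.08, and -0.18 without replicate 1. Of 10 LXR targets, 5 passed, against the same 21.5%: the sterol exporters Abcg5 (-0.69) and Abcg8 (-0.91), the lipogenic regulator Srebf1 (-1.14) and Lpcat3, a phospholipid enzyme (-0.31), were lower, and the cholesterol exporter Abca1 (0.88) was higher. Of 11 CAR and PXR targets, the transporters Abcb1a (-1.35) and Abcc2 (-0.62) and the heme synthesis gene Alas1 (-0.57) were lower at an unadjusted p under 0.05, against 9.72% of all genes called lower. The classical targets were named after their values were seen. Cyp2b10, that of CAR, had 4.95, 6.29 and 7.56 CPM in WT and 19.6, 0.78 and 11.7 CPM in Nr2e3-/- tumors, a spread that covered the WT range. Cyp3a11, that of PXR, had 2961, 2775 and 2866 CPM in WT and 2270, 1129 and 2892 CPM in Nr2e3-/- tumors, overlapping.

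In the lists below, the share of genes at an unadjusted p under 0.05 with all libraries lay on both sides of the 21.5% of all genes. It ran from 0% of the thyroid hormone targets to 42.9% of the tested immediate early genes. None of 6 thyroid hormone targets passed an unadjusted p of 0.05 with all libraries. The smallest p were those of Klf9, a transcription factor gene (log2 fold change 0.37 ± 0.20, SE), and Me1, the malic enzyme of lipogenesis (-0.43 ± 0.28, SE). Without replicate 1, 3 of the 6 passed it (37.7% of all genes), and the list's median log2 fold change was -0.35. Hr, a corepressor gene that thyroid hormone induces, then had -2.41 (edgeR adjusted p = 0.0134), against -0.78 with all libraries (adjusted p = 0.566). Its level was low, at 0.69, 0.74 and 0.73 CPM in WT and 1.13, 0.15 and 0.11 CPM in Nr2e3-/- tumors. Replicate 1 was thus the highest Hr library, and the values of replicates 2 and 3 lay near what a count of 0 allows. Of 9 HNF4A targets, 3 had an unadjusted p under 0.05 with all libraries (33.3%), all higher in Nr2e3-/- tumors. Among them were the coagulation factor gene F9 (0.38) and the apolipoprotein gene Apoc3 (0.33). Cyp8b1 went the other way, at -0.91 (edgeR unadjusted p = 0.12), and at -1.75 without replicate 1 (adjusted p = 0.0108). The median of the list was 0.18, and 0.13 without replicate 1. Of 6 tested retinoid genes, Tgm2, a transglutaminase that retinoic acid induces (1.30), was higher, but its groups overlapped. It had 152, 187 and 142 CPM in WT and 185, 716 and 283 CPM in Nr2e3-/- tumors. Among clock genes under REV-ERB and ROR, Nfil3, which encodes a repressor of D-box genes, had 7.91, 9.13 and 9.78 CPM in WT and 13.2, 45.5 and 46.1 CPM in Nr2e3-/- tumors, and it was the 1 gene of 4 tested at an unadjusted p under 0.05 (log2 fold change 1.97). Of 9 clock genes under E-boxes, Per3 (-1.04) and Dbp (-0.51) were lower at an unadjusted p under 0.05 with all libraries. Without replicate 1 an edgeR adjusted p under 0.05 was reached by 7 of the 9 (21.8% of all genes). Of these 7, Bhlhe41 was higher in Nr2e3-/- tumors (0.84, adjusted p = 0.0178) and the others were lower. Of 7 tested immediate early genes, which share the rapid induction of the NR4A receptors, Egr1 (-0.94) and Ier2 (-0.32) were lower and Junb (0.89) was higher. The groups of Egr1 and of Junb overlapped.

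**Figure D4:**
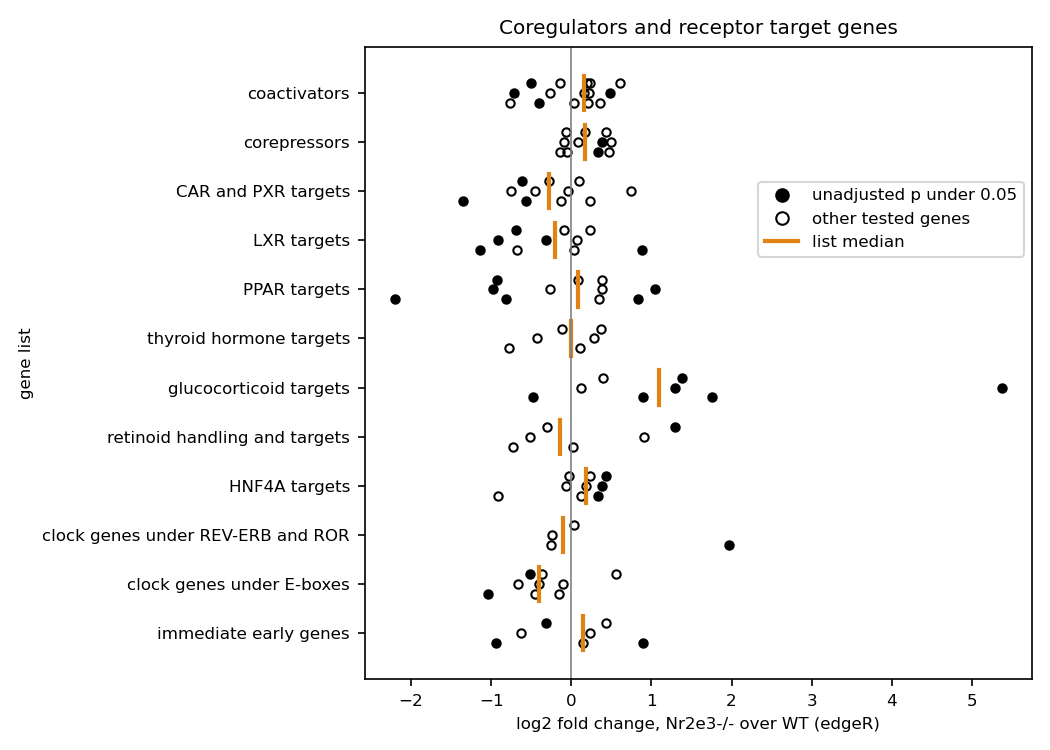
Log2 fold change (Nr2e3-/- over WT, edgeR, all libraries) of every tested gene in the coregulator and target lists, 1 row per list; filled points have an unadjusted p under 0.05, open points do not, and the orange bar is the list median. The glucocorticoid targets have the highest median, 1.10, with Mt2 farthest right at 5.37.

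Markers of other cells in the tumors are given beside these lists. Of 8 stellate markers none passed an unadjusted p of 0.05 with all libraries (median log2 fold change -0.35), with Reln (-0.64) and Dcn (-0.39) nearest and Pdgfrb on the other side (0.15). Without replicate 1, 5 of the 8 passed it (37.7% of all genes), 3 of them at an adjusted p under 0.05 (21.8% of all genes), and the median was -0.60. With all libraries, Lyve1 (0.82) and Kdr (-0.61) of 7 endothelial markers had an unadjusted p under 0.05. None of 7 macrophage markers did (median 0.31, with Clec4f at 0.33 and Timd4 at 0.37 nearest). The macrophage markers summed to 206.5 to 271.6 CPM in WT and 193.7 to 450.5 CPM in Nr2e3-/- tumors. Cholangiocyte and progenitor markers summed to 57.23 to 118.6 CPM in WT and 69.03 to 428.6 CPM in Nr2e3-/- tumors, most of it from Spp1, which had 410 CPM in Nr2e3-/- replicate 2. Of the 5 tested, Spp1 (1.68) and Epcam (1.58) were higher at an unadjusted p under 0.05, and Krt19 (0.67), Sox9 (-0.21) and Krt7 (-0.29) did not pass it. The groups of Spp1 and Epcam overlapped. Epcam had 1.80, 2.37 and 2.08 CPM in WT and 1.79, 10.9 and 5.78 CPM in Nr2e3-/- tumors. Spp1 in Nr2e3-/- replicate 1, at 56.3 CPM, lay within the WT range. Without replicate 1 the log2 fold changes were 2.13 for Spp1 and 2.02 for Epcam (edgeR adjusted p = 0.0266 and 0.00808). Lymphocyte markers summed to at most 6.49 CPM in any library, and the B cell genes Cd79a (-1.36) and Ms4a1 (-1.49) were lower at an unadjusted p under 0.05. Of the 6 hepatocyte markers, Serpina1c (0.39) was higher at an unadjusted p under 0.05. Their part in the receptor and target values was not tested.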

How the data were processed

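Single-end TruSeq libraries of total RNA from liver tumors were analysed. Per the study's methods the authors aligned reads to mm10 with TopHat and counted them with featureCounts; versions, strand and overlap settings are not given in the sources used here, and the submitters' notes also name Bowtie2 2.4.5, SAMtools 1.14 and DESeq. The deposited raw counts per gene were used; deposited normalized values and the authors' own fold changes and p-values were not. The 40 members and all gene lists were chosen with earlier results of these data known.

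Counts were tested with edgeR 4.0.16 (R 4.3.3): TMM normalization, default filterByExpr (minimum count 10, minimum total 15), quasi-likelihood F test of Nr2e3-/- against WT on all 6 libraries, Benjamini-Hochberg adjustment over all genes passing the filter, threshold 0.05. The study's own threshold was not used. Alternatives were DESeq2 1.42.0, limma-voom 3.58.1 with sample quality weights, RLE and upper quartile scaling, other filters, a replicate block and leaving out each library. CPM are TMM-normalized, and levels between genes were divided by the union of exons in GENCODE M21 (GRCm38). Exon overlaps came from the same annotation and promoters from RefSeq (GRCm38.p6). Receptors with an unadjusted p under 0.05 with all libraries or without a library that stood apart, and the 8 highest per length, were given library by library and the rest by range; of other lists, at most 6 genes by smallest p under 0.05, or the 2 with the smallest p. Per-library intervals for counts of 0 (3 counts) cover counting error only. Some genes of the lists are counted but not reported here by name.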

Additional observations from a re-analysis of the deposited data

How the results depend on the processing

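Depth (15376261 to 28690279 counts) and 3 libraries per group limit the low receptors most. Receptors with an adjusted p under 0.05 numbered 0 in edgeR with all libraries, 4 with DESeq2, 10 with limma-voom and 0 to 10 on leaving out each library in turn, the 10 without Nr2e3-/- replicate 1; at an unadjusted p under 0.05 there were 9, 17 with limma-voom and 5 to 20 on leaving out each library. Among all genes tested, 13 passed the adjusted threshold in edgeR, against 8 with upper quartile scaling, 1096 with DESeq2, 2360 with limma-voom, 70 without a filter beyond 1 count, 7 with at least 10 counts in every library, 0 with the replicate block and 0 to 3022 on leaving out each library. Genes of the target and coregulator lists at an unadjusted p under 0.05 numbered 36, 55 with limma-voom and 22 to 55 on leaving out each library. Signs turned for Nr3c1 (0.02 without Nr2e3-/- replicate 1), Nr1h3 (-0.03 with upper quartile scaling, -0.02 without WT replicate 3), Rxra (-0.02 and, without Nr2e3-/- replicate 3, -0.03), Nr1d2 (-0.05 with upper quartile scaling, -0.07 without WT replicate 2, -0.00028 without Nr2e3-/- replicate 3), Nr4a1 (0.01) and Nr6a1 (0.02), both without Nr2e3-/- replicate 3. On leaving out each library in turn these log2 fold changes ranged from -0.1 to 0.02 for Nr3c1, -0.02 to 0.12 for Nr1h3, -0.03 to 0.18 for Rxra, -0.07 to 0.16 for Nr1d2, -0.49 to 0.01 for Nr4a1 and -0.29 to 0.02 for Nr6a1. The cause was not tested. The other tested receptors kept their sign. Over all 34 tested receptors and these alternatives, 403 values kept their sign and call, 25 newly passed the threshold and 10 turned sign. Samples sharing a replicate number had deviations correlated at -0.077, 0.221 and 0.023, against -0.265 to 0.225 for different numbers. With 3 libraries per group, these values cannot decide whether the numbers pair the samples. In the fit with the replicate block, no receptor passed the adjusted threshold and 9 had an unadjusted p under 0.05.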
